A study of Mus musculus with 4 samples.

Results

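The genes described here lie around Azin2 on mouse chromosome 4, and their mRNA was measured in the testes of mice with and without a functional Azin2 gene. They are all genes whose start, the lower end of the gene in RefSeq on build GRCm38.p6, lay within 5 Mb of the Azin2 start at 128930233, which is the interval chr4:123930233-133930233. Azin2 itself and Hdac1 were left out. RefSeq places 312 other genes there, and 145 of them (137 protein coding, 6 snoRNA genes, 1 miRNA gene and 1 pseudogene) had a probe set of their own, out of 18820 genes with a value on the array. Of the 156 protein-coding genes of the interval, 2 (Sync and Rbbp4) were read only by probe sets that they share, and 17 had no probe set named here and were not analysed.

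Whole testes came from adult male mice, and their RNA was read on 4 arrays of the type Affymetrix Mouse Gene 1.1 ST: 2 of Azin2 knock-out (KO) and 2 of wild type (WT) mice, where each sample was a pool of 3 testes, from 3 mice by the study's description. The mice had a C57BL/6 mixed background and received no treatment. The KO animals were homozygous for a β-Geo cassette placed within Azin2, so that the Azin2 promoter drives a fusion protein with β-galactosidase activity, and the allele is described as hypomorphic. Whether WT mice were littermates of the KO mice is not given in the sources used here, and the strain origin of the DNA next to the cassette was not analysed.

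Azin2 encodes an antizyme inhibitor, a relative of ornithine decarboxylase that has no decarboxylase activity and frees the enzyme from antizymes, and it is most active in haploid germ cells. A gene that carries an inserted cassette is inherited together with the DNA around it, and the alleles of neighbouring genes can stay with it through many generations of crosses. The genes around Azin2 were chosen by position alone and have varied roles: they include Argonaute proteins, splicing factors, kinases, connexins, receptors of neurons and genes of the sperm flagellum.

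Azin2 was read first as a check of the genotype. Its log2 signal was 7.36 and 7.14 in the KO arrays and 10.16 and 9.998 in the WT arrays, a difference of -2.83 (standard error 0.10, adjusted p = 0.0250 from limma). All 7 spermatid markers examined (such as Prm1 and Tnp1) lay above the median of every array, with mean log2 signals per array between 11.7 and 11.8, and so did all 5 spermatocyte markers (10.4 to 10.5). Of 3 epididymis markers with a value, Lcn5 and Adam28 lay below the median of every array, and of 3 adipocyte markers Plin1 and Lep did. Of the spermatocyte markers 1 of 5 had an unadjusted p under 0.05 (mean difference KO minus WT 0.08), and of 6 Sertoli cell markers 0 did (mean difference 0.07), which is about the size of many differences given below. Their part in those was not tested. The array medians were 6.08 to 6.11, which RMA sets.

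None of the genes around Azin2 passed an adjusted p under 0.05 in the comparison of KO with WT testes by limma (0 of 145, where 0.00531% of all 18820 genes did, which is Azin2 alone). Smaller differences were present, and they were read from unadjusted p-values beside the share that the same threshold called over all genes. At an unadjusted p under 0.01, 6 genes were higher in KO testes (4.14% of the 145, against 0.303% of all genes) and 2 were lower (1.38%, against 0.324%). At an unadjusted p under 0.05, 12 were higher (8.28%, against 2.18%) and 6 were lower (4.14%, against 1.77%), while the ordinary equal-variance test called 13 in all (8.97% of the 145, against 4.97% of all genes). A fold of 1.5 together with an unadjusted p under 0.05, the threshold that the study names, was passed by 0 of them (0.0956% of all genes). With 2 arrays a group the smallest two-sided exact permutation p for a single gene is 0.333, so no gene here can be called on its own arrays alone. P-values measure only the spread between these pools.

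Both KO arrays lay above both WT arrays in 46 of the 145 genes (31.7%, against 20.3% of all genes) and below both in 24 (16.6%, against 12.2%). The differences were small in absolute terms. The median log2 difference was 0.02 over the 145 genes and 0.01 over all genes, with 83 of the 145 genes above 0 and 62 below. The median size of the difference, whatever its sign, was 0.0588 against 0.0462 over all genes, and its 90th percentile was 0.174 against 0.132. An absolute difference of 0.25 or more was measured in 12 of the 145 genes (8.28%) and in 1.59% of all genes. The median standard error was about the same in both (0.0596 and 0.0599), and the 95% confidence interval reached 0.154 to either side of the difference for the median gene.

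**Figure D1:**
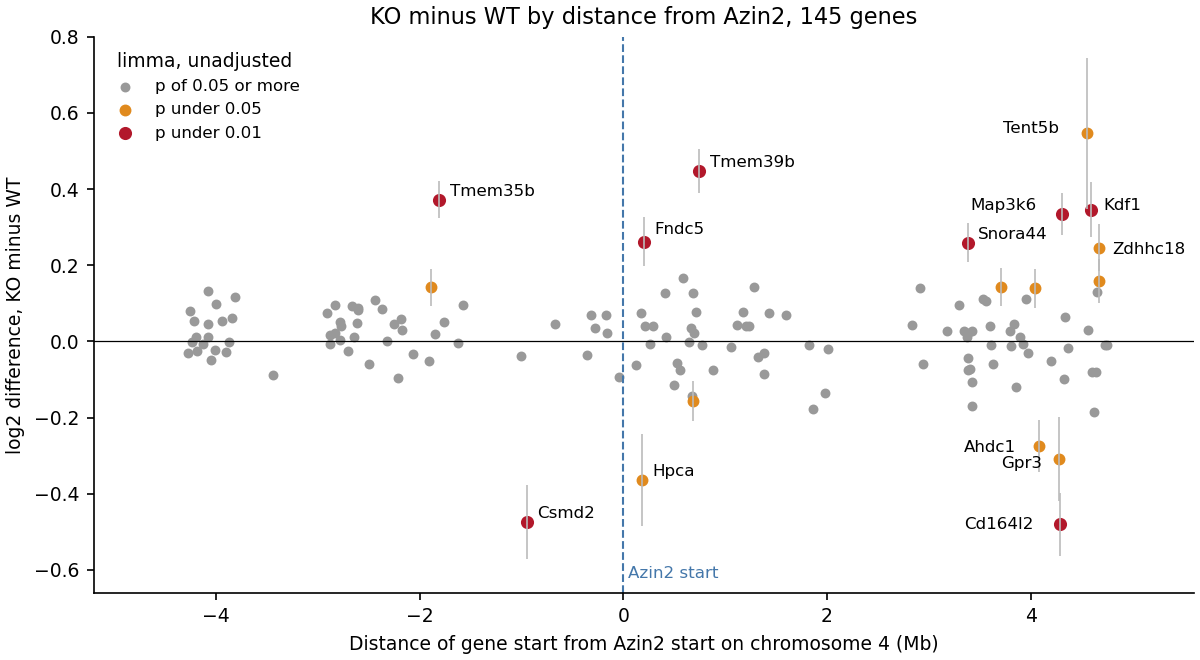
Difference between KO and WT testes in log2 signal (vertical axis) against the distance of the gene start from the Azin2 start in Mb (horizontal axis) for the 145 genes; colours give the unadjusted p from limma and grey bars the standard error for the genes at p under 0.05. Most genes lie near 0, and the 18 coloured genes lie between -1.88 and 4.67 Mb, more of them on the side of higher coordinates.

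The smallest p belonged to Tmem39b, a gene for a multi-pass membrane protein of the endoplasmic reticulum, which lies at chr4:129676352-129702167, at 0.746 Mb from Azin2. Its log2 signal was 10.22 and 10.31 in the KO arrays and 9.84 and 9.79 in the WT arrays. The difference was 0.45 (standard error 0.06, 95% confidence interval 0.30 to 0.60, fold change 1.36, unadjusted p = 0.000592 from limma). Both KO arrays were higher and the groups did not overlap, and the gap between the groups was wider than the gap within either.

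Tmem35b, which encodes a small membrane protein, lies on the other side of Azin2, at chr4:127126043-127129660 on the plus strand and at -1.80 Mb. It was measured at 8.57 and 8.55 in KO and at 8.20 and 8.18 in WT testes. The difference was 0.37 (standard error 0.05, 95% confidence interval 0.25 to 0.50, fold change 1.29, unadjusted p = 0.000607 from limma). Both KO arrays were the high ones, and the SD between the WT arrays (0.0151) was the smallest among the 8 genes at p under 0.01.

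Cd164l2, whose product resembles the sialomucin CD164, was the gene with the largest decrease in signal. It lies at chr4:133220809-133224554 on the plus strand, at 4.29 Mb. Its KO arrays were at 7.28 and 7.17 and its WT arrays at 7.62 and 7.80. The difference was -0.48 (standard error 0.08, 95% confidence interval -0.69 to -0.27, fold change -1.40, unadjusted p = 0.00209 from limma), and both KO arrays were the low ones.

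The promoters of Tmem35b and Cd164l2 are shown because these are the genes with the smallest p in each direction whose RefSeq start in the promoter table is also the edge of the gene. Each sequence holds the 250 bases before the start on the plus strand of chromosome 4 (RefSeq, GRCm38.p6), 5′ to 3′, and capitals mark GGGCGG, the letters of a GC box.
Tmem35b, chr4:127125793-127126042: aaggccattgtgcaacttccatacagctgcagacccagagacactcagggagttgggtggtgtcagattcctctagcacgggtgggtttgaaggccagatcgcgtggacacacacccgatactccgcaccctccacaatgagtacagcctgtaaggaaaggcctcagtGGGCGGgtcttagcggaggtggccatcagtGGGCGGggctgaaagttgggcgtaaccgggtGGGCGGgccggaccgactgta
Cd164l2, chr4:133220559-133220808: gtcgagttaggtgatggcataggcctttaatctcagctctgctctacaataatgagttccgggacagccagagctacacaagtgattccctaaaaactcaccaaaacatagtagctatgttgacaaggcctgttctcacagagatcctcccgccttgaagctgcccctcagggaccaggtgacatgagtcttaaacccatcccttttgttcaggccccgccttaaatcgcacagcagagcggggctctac
The Tmem35b promoter held GGGCGG at 3 places, which begin 82, 52 and 21 bases before the start, and 13 CG pairs. That of Cd164l2 held none of the letters searched and 6 CG pairs. Both strands were searched for 4 motifs: TATAAA (the TATA box), then CCAAT, the GC box shown and the cyclic AMP response element (TGACGTCA). No match in these sequences overlapped another. Of the 145 genes 123 had a promoter in the table, and 65 of these (52.8%) held GGGCGG, against 33.0% of all 27025 promoters and 42.7% of the 17492 that belong to protein-coding genes. The TATA box letters were found in 9 of the 123 promoters (7.32%, against 13.0% of all promoters). CCAAT was found in 45 (36.6%, against 34.5%) and the response element in 3 (2.44%, against 1.599%). The median number of CG pairs was 15 in the 123 promoters, 6 in all promoters and 10 in those of protein-coding genes. A match says only that the letters are there.

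Map3k6, a kinase at the top of a stress-activated MAP kinase cascade, lies at chr4:133237979-133252929, next to Cd164l2 and at 4.31 Mb. Its values were 6.57 and 6.51 in KO and 6.24 and 6.17 in WT testes, a difference of 0.33 (standard error 0.06, unadjusted p = 0.00181 from limma). Csmd2, a very large transmembrane protein with CUB and sushi domains known from neurons, spans chr4:127986505-128567660 and starts at -0.944 Mb. Its arrays were at 5.55 and 5.59 in KO and at 5.92 and 6.18 in WT testes, a difference of -0.47 (standard error 0.10, unadjusted p = 0.00447 from limma). For Csmd2 only WT replicate 2 lay above the median of its array. Map3k6 was high and Csmd2 low in both KO arrays, without overlap.

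Kdf1, a factor of keratinocyte differentiation at chr4:133518733-133530790 (4.59 Mb), was measured at 7.76 and 7.65 in KO and at 7.43 and 7.29 in WT testes. The difference was 0.35 (standard error 0.07, unadjusted p = 0.00521 from limma). A dimmer second probe set of Kdf1 gave a difference of 0.02 (unadjusted p = 0.743 from limma), so the 2 probe sets of this gene disagree. Fndc5, the gene of the precursor of irisin, lies at chr4:129136870-129144593 (0.207 Mb) and was at 8.80 and 8.82 in KO and 8.61 and 8.48 in WT testes, a difference of 0.26 (standard error 0.06, unadjusted p = 0.00987 from limma). In both genes the KO arrays were the high ones and the groups did not overlap.

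Snora44, an H/ACA small nucleolar RNA that guides pseudouridylation, lies at chr4:132309953-132310069 (3.38 Mb). It was at 8.39 and 8.38 in KO and at 8.09 and 8.15 in WT testes, a difference of 0.26 (standard error 0.05, unadjusted p = 0.00407 from limma). Other snoRNA genes beside it did not share this direction. Their differences were -0.04 for Snora16a, -0.07 for Snora61, -0.17 for Snora73b and -0.11 for Snora73a, none at p under 0.05. SnoRNAs are processed from introns of host transcripts, and the probe sets cannot tell the mature RNA from its precursor. The sixth snoRNA gene, Snord85, had the widest spread within groups (5.18 and 4.68 in KO, 4.50 and 5.38 in WT testes) and a difference of -0.01. The single miRNA gene, Mir697, had a difference of 0.01.

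**Figure D2:**
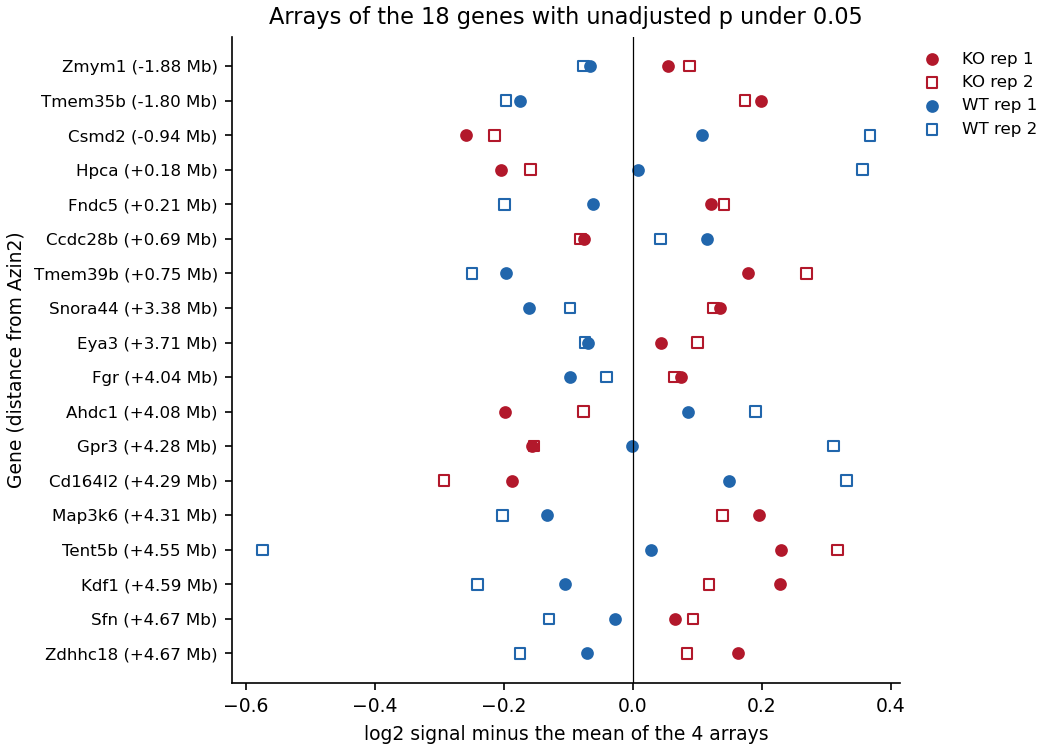
Log2 signal in each of the 4 arrays minus the mean of the 4 (horizontal axis) for the 18 genes at an unadjusted p under 0.05, in order of position from -1.88 Mb (top) to 4.67 Mb (bottom). Red marks are KO and blue marks WT arrays, the groups do not overlap in any row, and WT replicate 2 (open blue squares) lies farther out than WT replicate 1 in 15 of the 18 genes.

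The other 10 genes had an unadjusted p between 0.01 and 0.05 by limma, and in each the groups did not overlap. Tent5b, which encodes an enzyme that adds adenosines to RNA tails, had the largest difference of the 145 genes, 0.55 (standard error 0.20, unadjusted p = 0.0406 from limma). Its KO arrays were at 8.75 and 8.84, but its WT arrays were far apart, at 8.55 and 7.95. Taking away WT replicate 2 made the difference 0.25, and taking away WT replicate 1 made it 0.85, so this value rests on which WT pool is taken.

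Hpca, a calcium sensor of neurons, also had its WT arrays apart. It was at 6.80 and 6.84 in KO and at 7.01 and 7.36 in WT testes, a difference of -0.36 (unadjusted p = 0.0305 from limma) that was -0.19 without WT replicate 2. Gpr3, a receptor that keeps cyclic AMP high without a known ligand and holds oocytes in meiotic arrest, was at 5.73 in both KO arrays and at 5.89 and 6.20 in WT testes. Its difference of -0.31 (unadjusted p = 0.0379 from limma) became -0.15 when WT replicate 2 was taken away and -0.47 when WT replicate 1 was. For both genes the KO arrays lay close together and 1 WT pool stood apart. For Gpr3 only WT replicate 2 lay above the median of its array.

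Ahdc1, which has AT-hook DNA-binding motifs, was at 8.0025 and 8.12 in KO and at 8.29 and 8.39 in WT testes, a difference of -0.27 (unadjusted p = 0.0109 from limma). Zdhhc18, a palmitoyltransferase, was at 7.22 and 7.15 in KO and at 6.99 and 6.89 in WT testes, a difference of 0.25 (unadjusted p = 0.0112 from limma). Both were separated by about the same amount, one downward and one upward. The remaining differences were smaller: -0.16 for Ccdc28b, a modifier of ciliopathies, 0.16 for Sfn (the 14-3-3 protein sigma), 0.14 for the zinc finger gene Zmym1, 0.14 for Eya3, a phosphatase and transcriptional coactivator, and 0.14 for Fgr, a Src family kinase of myeloid cells. The unadjusted p of these 5 genes ranged from 0.0306 to 0.0416 by limma. A second probe set of Sfn gave a difference of 0.07.

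When each of the 4 arrays was left out in turn, all 8 genes at p under 0.01 kept an unadjusted p under 0.05 by limma, and 0 of the other 10 did. The p-values come from the same arrays and form no gap: the largest p of Fndc5 was 0.0433, and those of Hpca and Ahdc1 were 0.0870 and 0.0550. The counts depended on the arrays: at p under 0.01, the 6 higher genes became 2 when KO replicate 1 was left out and also 2 when WT replicate 2 was. The 2 lower genes became 1 when either KO array was left out and 4 when WT replicate 1 was. At p under 0.05, the 12 higher genes became 7 when either KO array or WT replicate 2 was left out, and the 6 lower genes became 3 when WT replicate 2 was. In both directions together, 7.59% of the 145 genes were at p under 0.05 when KO replicate 1 was left out (4.41% of all genes at that setting) and 7.59% when KO replicate 2 was (4.94%). The shares were 14.5% without WT replicate 1 (5.09%) and 6.90% without WT replicate 2 (2.77%), against 12.4% and 3.95% with all 4 arrays. Without WT replicate 1, 2 genes (Tent5b and Csmd2, chosen after their values were seen) passed the fold of 1.5. In 15 of the 18 genes (83.3%) WT replicate 2 lay farther from the KO arrays than WT replicate 1 did, against 415 of 723 other genes of the array at p under 0.05 (57.4%). Between the KO arrays no such preference was seen (8 of 18, and 47.2% of the other genes). The part of WT replicate 2 in these differences was not tested further.

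**Figure D3:**
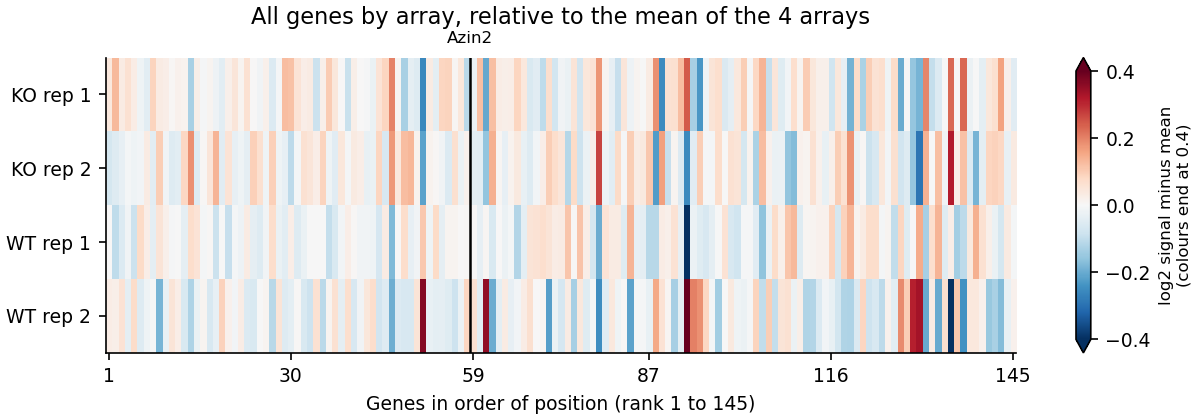
Log2 signal of each of the 145 genes (columns, in order of position on chromosome 4) in each of the 4 arrays (rows) minus the mean of the 4 arrays, with red for higher and blue for lower values and the place of Azin2 as a black line. Columns in which both KO rows have one colour and both WT rows the other are scattered on both sides of Azin2, next to columns without any difference.

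The position of the genes was then examined, since it alone defines the set. On the side of lower coordinates 3 of 58 genes had an unadjusted p under 0.05 (2 higher, 1 lower), and on the side of higher coordinates 15 of 87 did (10 higher, 5 lower). These are 5.17% and 17.2%, against 3.95% of all genes and 6.54% of genes over 20 Mb away on chromosome 4. At this threshold the lower side was thus close to the share over all genes. At the stricter threshold it was not. At an unadjusted p under 0.01 by limma, 2 lower-side genes (3.45%) and 6 higher-side genes (6.90%) passed, against 0.627% of all genes. The median size of the difference was 0.0482 on the lower and 0.0741 on the higher side. The counts of both sides depended on which array was left out. With single arrays left out, the median size of the difference was 0.0428 to 0.0658 on the lower side and 0.0702 to 0.0955 on the higher side.

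The differences did not decline evenly with distance. Across the 145 genes Spearman's rho of the size of the difference with the distance from Azin2 was 0.0214 (-0.205 over the lower and 0.104 over the higher side), as a description over genes that share the same 4 arrays. In bands of 1 Mb, genes at p under 0.05 numbered 2 of 8 from -2 to -1 Mb, 1 of 8 from -1 to 0 Mb, 4 of 23 from 0 to 1 Mb, 2 of 26 from 3 to 4 Mb and 9 of 20 from 4 to 5 Mb, and the other 5 bands, of 4 to 23 genes each, held 0. On other chromosomes 3.69% of genes had a p under 0.05, and at that share fewer than 1 gene is reached in a band of 23.

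**Figure D4:**
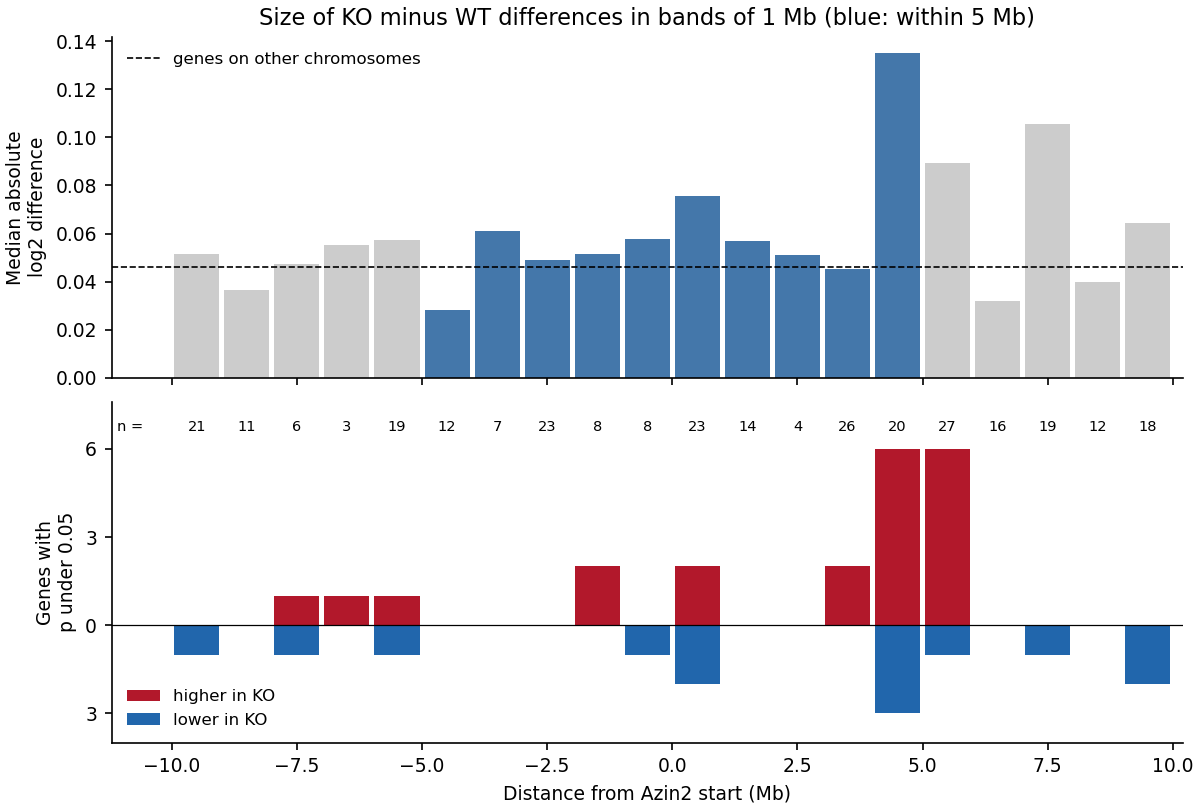
Upper panel: median size of the log2 difference between KO and WT testes in bands of 1 Mb from -10 to 10 Mb of the Azin2 start, with bands inside the interval in blue, those outside in grey and the median of other chromosomes (0.0460) as a dashed line. Lower panel: number of genes at an unadjusted p under 0.05 from limma, higher in KO upward and lower downward, with the number of genes per band above; the band of 4 to 5 Mb has the most, 9 of 20.

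The densest band was that of 4 to 5 Mb. Of its 20 genes 9 (45.0%) had an unadjusted p under 0.05, 6 of them higher and 3 lower in KO testes, and the median size of the difference was 0.135, against 0.0460 on other chromosomes. The count of this band depended on which array was left out, while its median size of the difference ranged from 0.127 to 0.172 when single arrays were left out. Bands were drawn without regard to genes, and the band was singled out after its values were seen. The next band, outside the interval, held 7 of 27 genes at p under 0.05 (6 higher, 1 lower) and the one from 6 to 7 Mb held 0 of 16.

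Within 1 Mb of Azin2, 5 of 31 genes (16.1%, against 3.95% of all genes) had an unadjusted p under 0.05, with a median size of the difference of 0.0707. Of the 6 genes nearest to Azin2, 1 was among them. On the lower side these were Trim62, a ubiquitin ligase at -0.0462 Mb (difference -0.09, unadjusted p = 0.224 from limma), the zinc finger gene Zfp362 (0.02) and the glycosyltransferase gene A3galt2 (0.07). On the higher side they were Rnf19b, a ubiquitin ligase at 0.128 Mb (-0.06, unadjusted p = 0.287 from limma), Tmem54 (0.08) and Hpca (-0.36), the only one of these 6 genes at p under 0.05. Hpca and Tmem54 overlap at their ends, and their differences had opposite signs.

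The genes at the edges of the interval are given as values. Pou3f1, a POU transcription factor at -4.27 Mb, was the outermost gene on the lower side (difference -0.03), and Arid1a, a subunit of SWI/SNF chromatin remodelling complexes at 4.75 Mb, was outermost on the higher side (-0.01). Just outside lay Rragc at -5.01 Mb (0.01) and Hmgn2 at 5.03 Mb (0.17, unadjusted p = 0.0331 from limma).

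Genes at p under 0.05 were next to each other in 5 places, and their directions were mixed. Gpr3 and Cd164l2 start head to head with 8.27 kb between them, and both were lower in KO testes. Hpca and Fndc5 also lie head to head, 10.95 kb apart, but Hpca was lower and Fndc5 higher. Cd164l2 and Map3k6, 13.4 kb apart on the same strand, moved in opposite directions, as did Fgr (higher) and Ahdc1 (lower), 9.37 kb apart. Sfn and Zdhhc18, 2.39 kb apart on the minus strand, were both higher. Adjacent genes thus did not share a direction in 3 of the 5 pairs.

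Grouped by what they do, 97 of the 145 genes fell into 12 groups and 48 into none. Among genes listed under neuronal receptors and synapses, 3 of 10 had an unadjusted p under 0.05 (Csmd2 and Hpca lower, Fndc5 higher), with a median difference of 0.03. Fndc5, the gene of the precursor of irisin, was placed in this list but encodes no receptor of neurons or synapse protein. Of 17 genes of chromatin and transcription, Zmym1 and Eya3 were higher and Ahdc1 lower (median 0.01). Of 8 kinases and phosphatases, Map3k6 and Fgr were higher (median 0.04), and of 12 genes of membrane traffic and transport, Tmem39b and Zdhhc18 were higher (median -0.0075). The same threshold called 12.4% of the 145 genes and 3.95% of all genes, and at 17.6% and 16.7% the chromatin and the membrane traffic group were near the share of the 145. In no group did more than 3 genes pass.

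**Figure D5:**
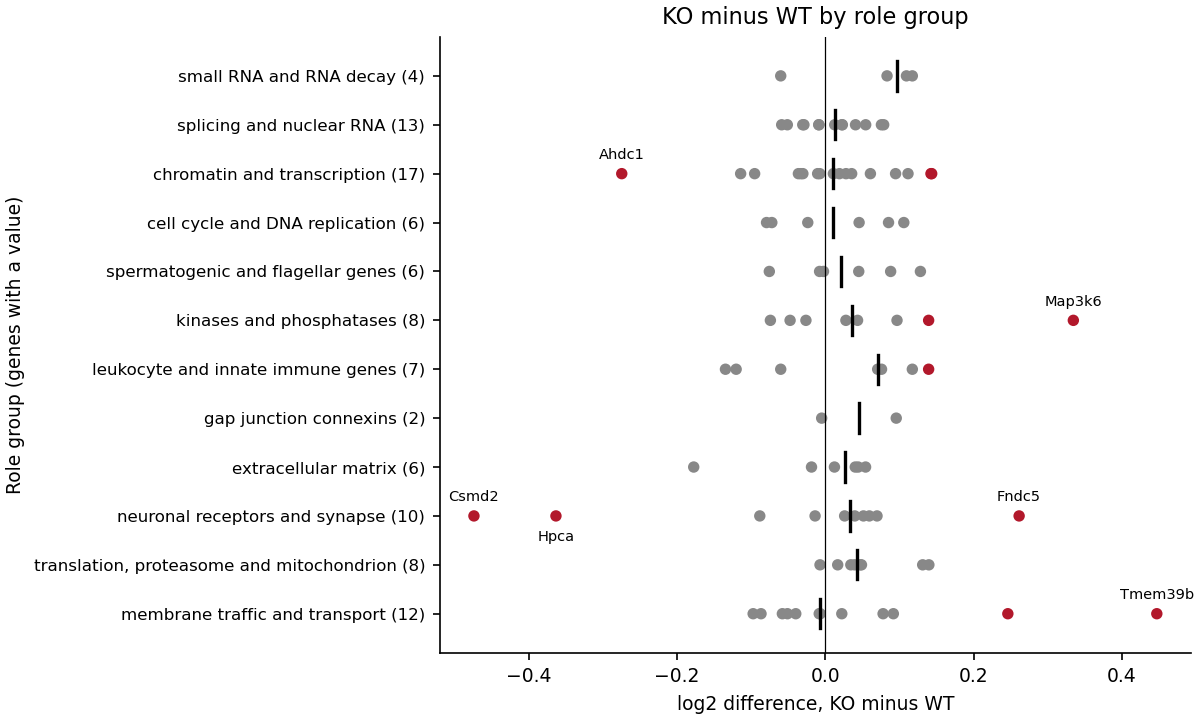
Difference between KO and WT testes in log2 signal (horizontal axis) for the members of 12 functional groups (rows, with the number of genes measured), where red points have an unadjusted p under 0.05 from limma and the black bar is the median of the group. Medians lie between -0.0075 (membrane traffic and transport) and 0.10 (small RNA and RNA decay), and red points occur in 5 of the groups.

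Fgr was the only one of 7 leukocyte and innate immune genes at p under 0.05, with values of 5.53 and 5.52 in KO and 5.36 and 5.42 in WT testes, all below the median of their array. The lowest of that group was Laptm5 (-0.13, unadjusted p = 0.368 from limma), a lysosomal protein of blood cells, and the highest after Fgr was Zc3h12a (0.12), an RNase that degrades cytokine mRNAs. The 5 macrophage markers had mean log2 signals of 6.83 and 7.10 in KO and 6.97 and 7.27 in WT testes, with Cd163 below the median of every array and 0 of 5 at p under 0.05. Their part in these values was not tested, and in whole testis fewer cells of a type and less RNA per cell cannot be told apart.

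In the other 7 groups 0 genes had an unadjusted p under 0.05. The 3 Argonaute genes and Zc3h12a of the small RNA group had differences from -0.06 (Ago1) to 0.12. Those of 13 genes of splicing and nuclear RNA ranged from -0.06 (Srsf4) to 0.08 (Utp11), and those of 6 cell cycle genes from -0.08 (Nudc) to 0.11 (Sesn2). Among 6 extracellular matrix genes the range was -0.18 (the syndecan Sdc3) to 0.05 (Rspo1), and among 8 genes of translation, proteasome and mitochondrion it was -0.01 (Yars) to 0.14 (Mecr, of mitochondrial fatty acid synthesis). Of 2 connexins with a value, Gja4 had a difference of -0.0049 and Gjb5 of 0.10.

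The seventh of these groups holds genes of sperm formation and the flagellum. The differences of the 6 with a value ranged from -0.08 for Tssk3, a kinase of spermatids, to 0.13 for Iqcc. Tekt2, a tektin of the flagellum, had a difference of 0.09 (95% confidence interval -0.04 to 0.22) and a dimmer second probe set one of -0.12. Dnali1, a light intermediate chain of axonemal dynein, had a difference of -0.0024 (95% confidence interval -0.13 to 0.12), and the proteasome subunit gene Psmb2, from the translation group, 0.05 (-0.08 to 0.18). Of 9 genes with several probe sets, Zcchc17, a gene of nuclear RNA processing, was the only one in which the second probe set alone had a p under 0.05: the difference was 0.19 (unadjusted p = 0.0101 from limma) in that probe set and -0.03 in the brighter one. The probe sets that Sync and Rbbp4 share differed by 0.05 and 0.03.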

How the data were processed

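The authors started from total RNA of pools of 3 testes and processed the scans with RMA, and the submitters' processing notes name Partek 6.13.1224. In RMA the background is corrected, all arrays are given the same distribution and probes are combined per probe set, so the deposited values are log2 signals in which folds of dim genes are compressed. The paper's methods describe amplified cDNA, and the label protocol names a 3'IVT kit that makes cRNA. Of 35556 probe sets, 21218 had 1 symbol in the platform annotation, 1881 had several and 12457 have no name here. The difference KO minus WT was fitted over the 23099 named probe sets with limma 3.58.1 in R 4.3.3 (lmFit and eBayes, Benjamini-Hochberg adjustment), and the probe set with the highest mean was taken for each gene. The code of the fit was tested on simulated data with independent normal noise and no array effects, which does not bear on the calls given here. Positions and promoters are from RefSeq (GRCm38.p6), as the authors' build is not given in the sources used here. The interval, the gene groups, the marker lists and the rule for named genes were chosen with earlier results of these data known, and support nothing independently. Named are genes at p under 0.01, the 8 largest other differences in each direction at p under 0.05, the 3 genes nearest Azin2 on each side, the extremes of each group, the edges of the interval, and members of the proteasome, testis-specific serine kinase and axoneme families. The snoRNA and miRNA genes, second probe sets and Snord85 were added after their values were seen. The alternatives were other variance models, normalizations, probe-set filters and windows, a replicate block, and each array left out. The number of arrays limits the precision.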

Additional observations from a re-analysis of the deposited data

How the results depend on the processing

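Under the alternatives run, 0 genes passed an adjusted p under 0.05, the median size of the difference (0.0588) was between 0.0529 and 0.0807, and no named gene at p under 0.05 changed sign. By the ordinary equal-variance test 1 gene, not 6, was higher at p under 0.01 (0.690%, against 0.670% of all genes). At p under 0.05 by that test 7 genes, not 12, were higher (4.83%, against 3.38% of all genes). Of the 8 genes at p under 0.01, 1 was still there by that test, which shares no spread between probe sets. When dim probe sets, those under the median level, were removed, 92 genes were left. Of these, 4 were higher (4.35%, against 0.205% of all genes at that setting) and 1 lower (1.09%, against 0.280%) at p under 0.01. At p under 0.05, 7 were higher (7.61%, against 1.37%) and 2 lower (2.17%, against 1.45%). The groups did not overlap in 28 (KO above, 30.4% against 16.3% of all genes) and 12 (KO below, 13.0% against 12.2%). A window of 2.5 Mb held 63 genes. Of these, 3 were higher (4.76%, against 0.303% of all genes) and 1 lower (1.59%, against 0.324%) at p under 0.01. At p under 0.05, 4 were higher (6.35%, against 2.18%) and 3 lower (4.76%, against 1.77%). The groups did not overlap in 20 and 11 (31.7% and 17.5%). A window of 10 Mb held 297 genes, of which 8 were higher (2.69%) and 4 lower (1.35%) at p under 0.01. At p under 0.05, 21 were higher (7.07%) and 13 lower (4.38%). The shares of all genes are the same for both windows. A fold of 1.5 was passed by 1 gene (0.337%, against 0.0956% of all genes). The groups did not overlap in 85 and 48 (28.6% and 16.2%, with all genes at 20.3% and 12.2%). With single arrays left out, where a lone array is taken to vary as the other genotype does, the genes at p under 0.01 were 2 to 6 higher and 1 to 4 lower, those at p under 0.05 were 7 to 15 higher and 3 to 6 lower, 0 to 2 passed the fold of 1.5, and 61 to 71 and 37 to 49 did not overlap, since 1 array is then easier to separate (42.1% to 49.0% and 25.5% to 33.8% of the 145, against 36.7% to 39.4% and 27.5% to 28.9% of all genes). With the replicate number as a block, 8 genes were higher at p under 0.05 (5.52%, against 1.43% of all genes). Lower were 6 (4.14%, against 1.48%), and 13 of the 18 were shared. At p under 0.01 the block gave 4 higher (2.76%, against 0.128% of all genes) and 3 lower (2.07%, against 0.298%). Same-numbered KO and WT arrays share only a number (correlation of their deviations -0.0818 over 23099 probe sets). Why the counts differed between settings was not tested.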

Other observations

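Beyond the interval but on the same chromosome, 6 genes between 5 and 20 Mb from Azin2 had an unadjusted p under 0.01 by limma, none of which passed an adjusted p under 0.05. Lin28a, an RNA-binding protein that blocks let-7 maturation and marks undifferentiated spermatogonia, lies at 5.07 Mb and was at 6.77 and 6.73 in KO and at 6.55 and 6.49 in WT testes (difference 0.23). Zfp593 at 5.31 Mb had a difference of 0.35, with KO arrays at 8.76 and 8.58 and WT arrays at 8.32 and 8.33. Both lie in the stretch that continues the dense band of 4 to 5 Mb. Farther out on that side, the zinc finger gene Zfp979 at 18.7 Mb had a difference of 0.47. On the lower side, Gm12888 at -7.61 Mb had one of -0.51, the glucose transporter gene Slc2a1 at -9.82 Mb one of -0.19 and Tmem125 at -10.4 Mb one of 0.26. In all 6 genes the KO and WT arrays did not overlap. On the lower side they were 2 of 60 genes from -10 to -5 Mb (3.33%) and 1 of 100 from -20 to -10 Mb. On the higher side they were 2 of 92 genes from 5 to 10 Mb (2.17%) and 1 of 103 from 10 to 20 Mb (0.971%). The share of genes at p under 0.01 was 1.14% over 20 Mb away on chromosome 4 and 0.532% on other chromosomes. At p under 0.01, the share from 10 to 20 Mb on either side was thus no higher than that over 20 Mb away. That comparison rests on 1 gene per side. At p under 0.05 by limma, 9 of 103 genes passed on the higher side (8.74%) and 3 of 100 on the lower. Over 20 Mb away on chromosome 4, the share at p under 0.05 was 6.54%, so the higher side lay above it and the lower side below.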
